A study of Mus musculus with 12 samples.

Results

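Peaks of the T cell receptor loci Tcrb and Tcra/Tcrd and of the Rag1 and Rag2 pair were taken from ChIP-seq peak lists of thymocytes, the T cell precursors that mature in the mouse thymus. The members are all peaks that share at least 1 bp with 3 windows of the mm9 genome. These are chr6 from 40.8 to 41.55 Mb for Tcrb, chr14 from 53.0 to 54.9 Mb for Tcra/Tcrd, and chr2 from 101.42 to 101.56 Mb for Rag1 and Rag2. Of 21883 peaks in 7 lists, 6 lay in these windows: 2 in the Tcrb window, 3 in the Tcra/Tcrd window and 1 in the Rag window. Of the 6, 5 were peaks of histone H3 acetylated at lysines 9 and 27 (H3K9ac/K27ac, found at promoters and enhancers in use) in Zfat f/f thymocytes, and 1 was a ZFAT peak in B6 thymocytes. The other 5 lists held none.

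Thymocytes came from mice aged 4 to 5 weeks. The Zfat f/f mice carry a floxed Zfat gene, which encodes the zinc-finger protein ZFAT. The Zfat f/f-LckCre mice carry the same floxed gene and Cre under Lck control, meant to act in the T lineage. B6 (C57BL/6) mice are labelled with no floxed gene and no Cre. ZFAT was profiled in all 3 lines, H3K9ac/K27ac in floxed and Lck-Cre cells, and H3K9me3 (H3 trimethylated at lysine 9, a mark of silent chromatin) in floxed cells only. Each was 1 library, and the B6 ZFAT library was called against input and again against IgG, so values compare libraries, without a test between genotypes. In whole thymocytes, fewer cells with a mark and less of it per cell cannot be told apart. Whether the Lck-Cre cells had lost the floxed sequence was not measured in these lists.

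T cell receptor genes are assembled in the thymus from separate V, D and J segments. The RAG1 and RAG2 proteins form the recombinase that cuts beside these segments, and the adjacent Rag1 and Rag2 genes are active in thymocytes that are rearranging. Tcrb is rearranged before Tcra, and each locus has a known enhancer on the constant-gene side that its recombination and transcription depend on. Tcrd lies inside the Tcra locus and is deleted when Tcra recombines. In the RefSeq table of GRCm38.p6, 35 entries are named Trbv, 2 Trbd, 14 Trbj and 2 Trbc on chromosome 6. On chromosome 14, 130 are named Trav, 6 Trdv and 60 Traj, with 1 Trac and 1 Trdc. The Trav segments come first, Trac follows the Traj segments, and Dad1 and Abhd4 come next. Beyond Trbc2 lie Trbv31, Gm27549 and Ephb6. The Rag pair stands in the order Iftap, Rag2, Rag1, Gm34041, Traf6. That build differs from that of the peaks, so it served for names and order only, and no peak below is placed on a gene, a segment or an enhancer.

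The promoters of Rag2 and Rag1 are shown because they stand in a window where ZFAT, H3K9me3 and Lck-Cre acetylation gave no peak. Traf6, an adaptor of cytokine receptor signalling, is shown as a promoter on the Rag1 side of the pair. Each sequence is the 250 bases before the start in RefSeq (GRCm38.p6), 5′ to 3′ on the gene's strand. Capitals mark CANNTG, the E-box read by E proteins, and TGTGGT, the core read by Runx factors, on either strand.
Rag2: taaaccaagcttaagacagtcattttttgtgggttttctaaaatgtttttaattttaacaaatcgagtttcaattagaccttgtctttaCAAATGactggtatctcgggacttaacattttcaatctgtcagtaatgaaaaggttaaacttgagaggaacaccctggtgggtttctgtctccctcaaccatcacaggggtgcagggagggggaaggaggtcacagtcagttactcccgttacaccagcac
Rag1: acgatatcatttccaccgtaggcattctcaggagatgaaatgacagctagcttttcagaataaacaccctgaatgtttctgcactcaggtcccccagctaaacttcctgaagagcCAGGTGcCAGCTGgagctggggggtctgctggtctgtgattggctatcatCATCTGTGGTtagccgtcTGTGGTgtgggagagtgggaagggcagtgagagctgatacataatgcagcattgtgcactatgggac
Traf6: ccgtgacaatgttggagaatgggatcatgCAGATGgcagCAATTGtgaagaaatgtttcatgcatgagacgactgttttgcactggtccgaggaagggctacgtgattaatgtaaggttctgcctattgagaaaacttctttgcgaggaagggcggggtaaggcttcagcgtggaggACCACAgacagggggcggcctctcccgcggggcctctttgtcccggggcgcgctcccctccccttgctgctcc
The Rag1 promoter held 3 CANNTG matches and 2 of TGTGGT, and 1 of the latter overlapped an E-box. Rag2 held 1 CANNTG match and no TGTGGT, and Traf6 held 2 and 1. CANNTG was found in 66.2% of 32851 promoters of the same length and TGTGGT in 14.05%. The Rag1 and Rag2 promoters held 3 CpG dinucleotides each and Traf6 held 13, beside a median of 6 over all promoters. These matches describe the letters and not binding.

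The Tcra/Tcrd window carried acetylation peaks at one end only. All 3 of its floxed acetylation peaks lay within the last 51.2 kb of the 1.9 Mb, on the side that in RefSeq order holds Trac and Dad1. Whether any of them stands at Trac, Dad1 or a further gene was not tested. The strongest was chr14:54848807-54848980, with a fold of 13.1 over the caller's local background and a P score (−log10 of the caller's p) of 60.7. From fold and P score, 74 fragments were inferred at its summit (the pileup, Poisson 95% interval 58.1 to 92.9). It ranked 1735 of the 13016 floxed acetylation peaks by P score, but at 174 bp it was shorter than 82.2% of them, close to the 150 bp fragment length. A second peak followed after 1117 bp, at chr14:54850098-54850320, with a fold of 6.41 and a pileup of 7 (2.81 to 14.4). The third, chr14:54878809-54878981, stood 28.5 kb further on with a fold of 7.16 and a pileup of 11 (5.49 to 19.7). The intervals of these weaker peaks overlap each other and stay below that of the first; they cover counting error only.

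The rest of the Tcra/Tcrd window held no peak, and how many reads could be placed there was not measured in these lists. From the last acetylation peak before it, chr14:52935674-52935980, to the first peak inside it, 1.91 Mb passed without a peak in any of the 7 lists. This was the 268th longest of 12996 stretches between neighbouring floxed acetylation peaks, whose median was 35.8 kb. Acetylation was dense on both sides: 33 floxed peaks lay within 500 kb of the window, against 3 inside it, or 33.0 and 1.58 peaks per Mb beside 4.93 over the whole list. Long empty stretches are not rare in this list, however. Of 1377 stretches of the same length laid end to end over the genome, 41.5% held 3 or fewer acetylation peaks and 20.7% held none. Sequence where no read can be placed was not left out, so these shares, and those given for the other windows, may be too high.

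The Tcrb window showed the same position of its acetylation, near one end. Its only floxed acetylation peak, chr6:41493462-41493655, lay 56.3 kb before the end of the window, 92.5% of the way along it and on the side that in RefSeq order holds the Trbc genes. The fold was 10.2, the P score 21.2 and the pileup 23 (14.6 to 34.5), below the list's median pileup of 38. Before it, 1.07 Mb held no acetylation peak, the 557th longest such stretch, and the other 693 kb of the window up to this peak held no peak of any list. Of 3507 stretches of 750 kb laid in the same way, 51.8% held 1 acetylation peak or none. By that measure a single peak is no unusual count for this length. The nearest peaks beyond the window were chr6:41554667-41554829, 4.67 kb past its end with a pileup of 10, and the stronger chr6:41555116-41555872, with a fold of 20.2 and a pileup of 74. The latter was also called in Lck-Cre cells, with a fold of 7.51 and a pileup of 21.

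**Figure D1:**
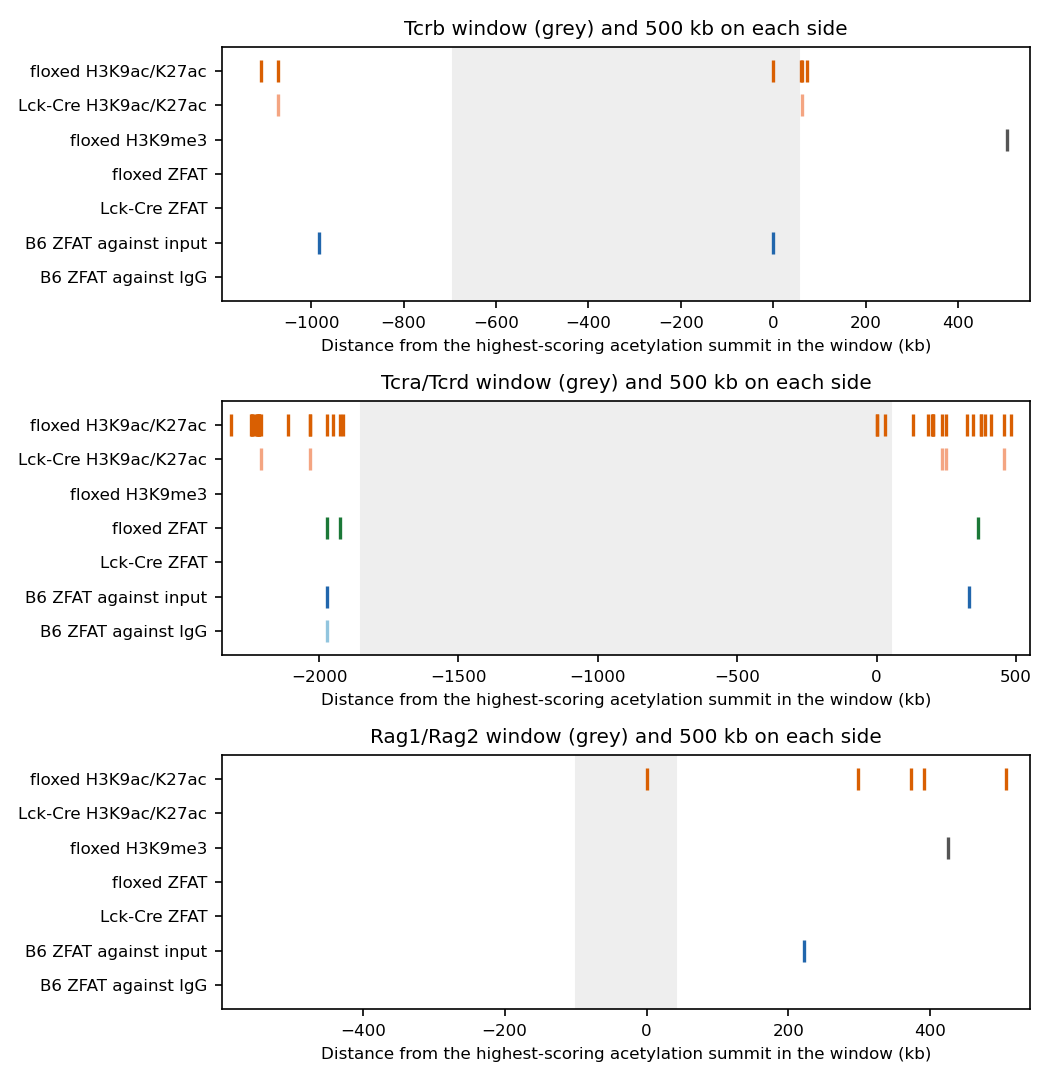
Position of every peak of the 7 lists in each window (grey) and 500 kb on each side, as distance in kb from the summit of the window's highest-scoring acetylation peak; each tick is 1 peak. Acetylation stands at the right end of the Tcrb and Tcra/Tcrd windows, with 33 peaks around the latter, and the Rag window holds a single peak.

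The Rag window carried 1 peak, which was also the longest of the members. The floxed acetylation peak chr2:101518569-101519187 spanned 619 bp, longer than 86.6% of its list. It had a fold of 14.8, the highest among the members, a P score of 50.5 and a pileup of 54 (40.6 to 70.5), and ranked 2708 of 13016. Its summit stood 70.6% of the way along the 140 kb window. The preceding floxed acetylation peak was 3.44 Mb away, the 95th longest of the 12996 stretches, and the next was 298 kb away. Other lists had peaks in that longer stretch: 2 of Lck-Cre acetylation, 11 of H3K9me3 and some of every ZFAT list. Among them, the Lck-Cre ZFAT peak chr2:98507244-98507454 had a pileup of 2768 over an inferred background of 1413, a fold of 1.96. It was overlapped by peaks of Lck-Cre acetylation, H3K9me3 and both B6 ZFAT lists. Whether the calls at that place reflect the marks or ZFAT was not tested. Within 500 kb of the window, floxed acetylation reached 4 peaks per Mb beside 4.93 over the list, all beyond the window's end. The window reaches past the gene pair, and Traf6 lies on the higher-numbered side of Rag1 in RefSeq order. Whether the peak stands at Rag1, Rag2, Traf6 or between them was not tested. Of 18832 stretches of 140 kb, 71.9% held no acetylation peak.

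Over the 3 windows, the 5 acetylation peaks had a median fold of 10.2 and a median pileup of 23, beside 8.62 and 38 over the list. Their median length was 194 bp, beside 290 bp. At the average density of the list, windows of this total length, 2.79 Mb, would hold 13.8 peaks. The members differed widely among themselves, from the first Tcra/Tcrd peak with 74 fragments to its neighbour with 7.

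**Figure D2:**
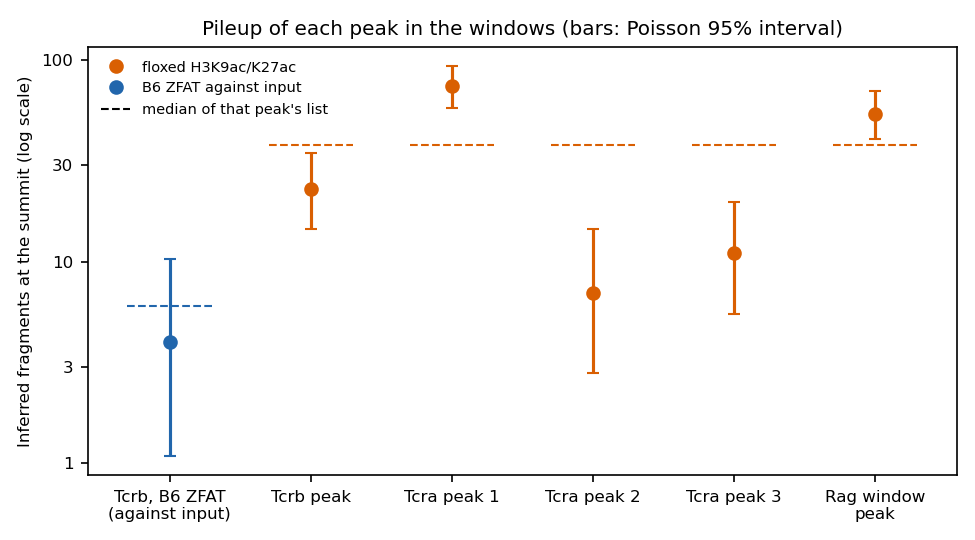
Fragments inferred at the summit of each of the 6 peaks (log axis), with Poisson 95% intervals for counting error and the median of the peak's own list as a dashed line. The first Tcra/Tcrd peak (74) and the Rag window peak (54) lie above the acetylation median of 38, while the Tcrb peak (23), the other Tcra/Tcrd peaks (7 and 11) and the B6 ZFAT peak (4, list median 6) lie below theirs.

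No acetylation peak of these windows was called in Lck-Cre thymocytes. None of the 5 floxed peaks was overlapped by a Lck-Cre peak (0 of 5, exact Clopper-Pearson 95% upper limit 52.2%), and the windows held no other Lck-Cre acetylation peak. Over the whole list, 12.3% of floxed acetylation peaks had a Lck-Cre peak, so 0 of 5 lies near the background. The share rose with the floxed P score. It was 26.7% in the decile of the first Tcra/Tcrd peak, 18.3% in that of the Rag window peak and 4.69% in that of the Tcrb peak. For the weaker Tcra/Tcrd peaks it was 1.61%. Most peaks as strong as these were therefore not called in Lck-Cre cells either.

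**Figure D3:**
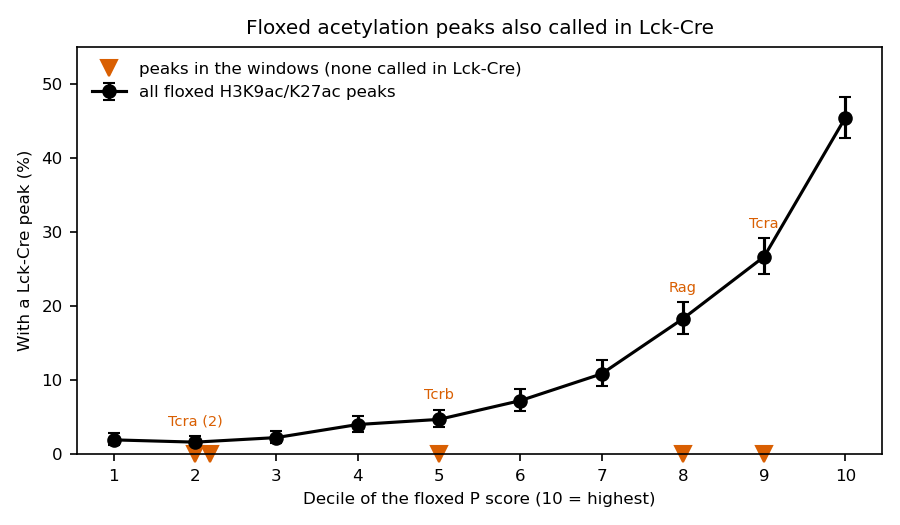
Percentage of floxed acetylation peaks overlapped by a Lck-Cre acetylation peak in each decile of the floxed P score (points, with exact 95% intervals), with triangles at the deciles of the 5 peaks in the windows. The share climbs from 1.92% to 45.5%, and none of the 5 peaks was called in Lck-Cre.

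The inferred fragment total of the Lck-Cre acetylation library was also lower, 0.613 times that of the floxed library. Both totals come from the lowest background of each list, so depth itself was not measured. Scaled by this ratio, the first Tcra/Tcrd peak would hold 45.4 fragments (35.6 to 56.9), where 13 would pass the caller's threshold if the background scaled alike. The Rag window peak would hold 33.1 (24.9 to 43.2), where 9 would pass, and the Tcrb peak 14.1 (8.94 to 21.2), where 7 would pass. For the weaker Tcra/Tcrd peaks, 4.29 (1.73 to 8.84) stands beside a required 4, and 6.74 (3.37 to 12.1) beside 5, so a difference was not detectable at this depth. Around the windows, 7 of 42 floxed acetylation peaks within 500 kb had a Lck-Cre peak (16.7%, 6.97% to 31.4%). Those 7 had floxed pileups of 57 to 105 and Lck-Cre pileups of 20 to 39, a ratio of 0.277 to 0.371, lower than the ratio of depths. These flanking peaks were chosen by being called in both lists. At their ratios, the first Tcra/Tcrd peak would hold 20.5 to 27.5 fragments and the Rag window peak 14.96 to 20.1. Those values stand beside 13 and 9, requirements that keep the background scaled by the ratio of depths. At most of the 7 shared flanking peaks, though not all, the inferred background fell by less than the ratio of depths. The requirements given here may therefore be too low. The Lck-Cre background at the window peaks is not known, so whether they would have been called was not tested. The Tcrb peak would hold 6.37 to 8.54, on either side of its required 7, and the weaker Tcra/Tcrd peaks 1.94 to 2.60 and 3.05 to 4.09, below theirs. Of the 13 flanking peaks with a floxed pileup of 57 or more, 6 were not called in Lck-Cre cells, as the first Tcra/Tcrd peak was not. That cutoff is the lowest floxed pileup of the 7 called flanking peaks, so all 7 reach it by construction. Control libraries of the floxed and Lck-Cre lists are not named, and their part in these calls was not tested.

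Within the windows, ZFAT was listed at Tcrb alone and in B6 cells alone, which was not tested as a difference. The B6 peak chr6:41493472-41493626, called against input, lay wholly within the Tcrb acetylation peak, with summits 36 bp apart. It rested on 4 inferred fragments (1.09 to 10.2), with a fold of 4.76 and a P score of 8.57. The same fold and P score were shared by 252 of the 2000 B6 peaks called against input (12.6%), and 23 of these 252 (9.13%, 5.87% to 13.4%) overlapped a floxed acetylation peak. Over the whole list 19.2% did. Conversely, 2.96% of all floxed acetylation peaks were overlapped by a B6 ZFAT peak called against input, and 1 of the 5 in the windows was. None of the 5 was overlapped by a ZFAT peak of the floxed list (3.43% of all floxed acetylation peaks), the Lck-Cre list (0.154%) or the B6 list against IgG (1.04%).

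The Tcrb ZFAT peak was not seen in any other ZFAT list. It was absent when the same B6 library was called against IgG, which retained 14.5% of the peaks called against input and 44 of the 252 peaks of this size (17.5%). It was absent from floxed cells, whose nearest ZFAT peak lay 2.85 Mb away, and from Lck-Cre cells, whose nearest lay 8.06 Mb away. Of the 252 B6 peaks of this size, 0 had a floxed ZFAT peak (upper limit 1.45%), beside 7.30% of all B6 peaks called against input. At 4 fragments, presence in B6 and absence in floxed cells give no measured difference between the lines.

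Around Tcra/Tcrd, ZFAT stood outside the window. The floxed ZFAT peak chr14:52924468-52924638, 75.4 kb before it, had a fold of 10.2 and a pileup of 30 and overlapped a floxed acetylation peak. In B6 cells the nearest was chr14:52877073-52877377, 123 kb before it, with a pileup of 35 and a fold of 5.46 against input. It was also called against IgG, with a fold of 7.08, and in floxed cells, and it overlapped floxed acetylation but no Lck-Cre peak of either kind. At the Rag window the nearest ZFAT peak was a B6 peak of 3 fragments, 181 kb beyond its end, and the nearest floxed ZFAT peak was 1.35 Mb beyond it. The windows would hold 1.82 ZFAT peaks of the floxed list, 0.114 of the Lck-Cre list and 2.12 of the B6 list against input at the average density of each. Counts of 0, 0 and 1 are too few to set these loci apart.

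H3K9me3 gave no peak at these loci. None of its 2388 floxed peaks lay in the windows, where the average density of the list gives 2.53. The nearest stood 449 kb beyond the Tcrb window (pileup 12), 639 kb beyond the Tcra/Tcrd window (pileup 11) and 384 kb beyond the Rag window (pileup 7). The empty Tcra/Tcrd stretch thus held neither acetylation nor H3K9me3 peaks. A count of 0 beside 2.53 is too small to set these loci apart, and does not show absence of the H3K9me3 mark. Over the list, 0.807% of floxed acetylation peaks were overlapped by H3K9me3, and 0 of the 5 in the windows were.

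**Figure D4:**
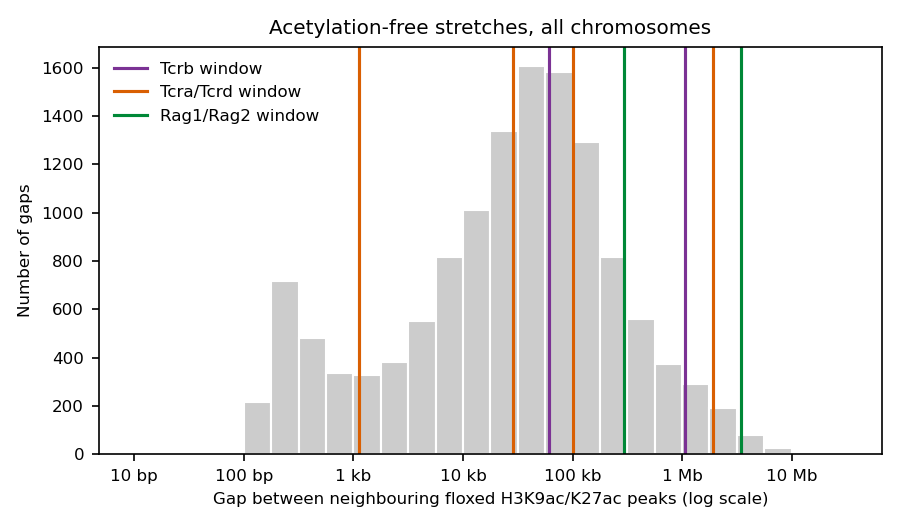
Number of stretches between neighbouring floxed H3K9ac/K27ac peaks by their length (log axis, all chromosomes), with lines at the stretches that touch each window. The stretches before the Tcrb (1.07 Mb), Tcra/Tcrd (1.91 Mb) and Rag window (3.44 Mb) peaks lie in the right tail, and 4.57% of all stretches exceed 1 Mb.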

How the data were processed

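The authors called peaks in mm9 with MACS, per the labels and the file names; its version and the aligner are not given in the sources used here. The submitters' processing notes name CASAVA 1.8.1, Trimmomatic 0.22 and SAMtools 0.1.18. Per the file headers, all lists used a fragment length of 150 bp and a p threshold of 1e-05. The deposited P and Q scores are −log10 values, and the deposited fold is a ratio of ChIP signal over the local background, computed by the authors; all are values of single peaks, called per library. The Q score was not used.

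Windows were applied with a minimum overlap of 1 bp to Start and End, with Python 3.11.15, pandas 2.3.3 and SciPy 1.17.1. A pileup is the whole number of fragments that meets both fold, as (pileup + 1)/(background + 1), and the Poisson tail within 0.0001 of the P score. This step was tested on data with known pileups before use. The lowest background of a list gave its inferred depth: 2190000 fragments for floxed and 1340000 for Lck-Cre acetylation, 2230000 for H3K9me3, and 1510000, 1350000 and 632000 for floxed, Lck-Cre and B6 ZFAT. Intervals cover counting error only. Of the 12 samples, 6 ChIP libraries were used, and the 6 input or IgG samples were not analysed here. With 1 library per group, no test was run. Average densities divide each list by 2638 Mb, the sum of chromosome spans up to the last peak.

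The rule for naming took every peak in the windows. The members and lists were chosen with earlier results of these data known, and the 500 kb flanks after the peaks were seen. Lists of other V(D)J recombination genes and of cell type markers needed gene positions in mm9 and were not used, so the thymocyte identity was not checked. Alternatives covered the P score, the summit, the control background, wider windows, the overlap and equal list lengths.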

Additional observations from a re-analysis of the deposited data

How the results depend on the processing

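Of 108 recomputed values for 29 results, 98 stayed at or within 1.5 times the reported count, or within its interval. Most of the reported window counts were 0, which settings that only remove peaks could not move. The tally is therefore no measure of robustness. At P scores of 10 or more, the Tcrb ZFAT peak dropped out, leaving 0 B6 ZFAT peaks there and 0 with acetylation; of the 5 acetylation peaks, 4 remained. With windows widened by 100 kb on each side, the Tcrb window held 4 floxed and 1 Lck-Cre acetylation peaks, the Tcra/Tcrd window 6 floxed acetylation peaks and 1 floxed ZFAT peak, and 2 ZFAT peaks overlapped acetylation. The share called in Lck-Cre was then 9.09% (1 of 11) and 0 under every other setting; at equal list lengths 1 floxed acetylation peak was left. Requiring the summit inside the window, or dropping peaks where the inferred background reached 20, changed no count. No peak in the windows had such a background, so that last setting could not change the counts. No paired analysis was possible because each ChIP group has 1 library. Scaled by the median ratio of 0.328 at shared flanking peaks, chosen after seeing the data, in place of the depth ratio, the fragments expected in Lck-Cre were 24.3 at the first Tcra/Tcrd peak, 17.7 at the Rag window peak and 7.54 at the Tcrb peak. Peaks of 4 to 11 fragments have the widest counting intervals relative to their size.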
